A study of Mus musculus with 9 samples.

Results

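The genes described here are 10 members of the interleukin-6 (IL-6) and interleukin-1 (IL-1) cytokine families and their receptors: the IL-6 family ligands Il6, Il11 and Lif, the receptor chains Il6st, Osmr, Lifr and Il11ra1, the IL-1 family ligand Il33, its receptor Il1rl1, and the IL-1 receptor Il1r1. They were selected from the RNA-Seq table by symbol, with their Stem, TGF-β and Both values from these same libraries already known. The values below are therefore a description. Calls of members by adjusted p are part of that description, and no p-value of a member is printed. The members make up 10 of 55416 genes in the table. All 10 passed the filter on low counts, which left 14879 genes tested.

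AdvSca1-SM cells are adventitial progenitor cells of the artery wall that arose from smooth muscle cells and carry the surface protein Sca1. They were sorted as YFP+ Sca1+ cells from carotid arteries, aortic arches and descending aortas pooled from 8-week-old SM22α-Cre YFP reporter mice, and were cultured to between passage 2 and passage 6. In these mice Cre under the SM22α promoter switches on YFP in any cell with a smooth muscle history, so rare Sca1+ cells of the media can be included. RNA-Seq was performed on 9 libraries, 3 independent replicates per group, to ask how TGF-β1 changes these cells and what PFI-3, a compound that occupies the Brg1 bromodomain (Brg1 is a chromatin remodeler), does to that response.

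The Stem group was kept in stem cell medium (αMEM with 10% serum, 1 ng/mL basic fibroblast growth factor and 5 ng/mL epidermal growth factor). The TGF-β group received 5 ng/mL TGF-β1 in DMEM with 0.1% serum, and the Both group received the same plus 50 μM PFI-3. All 3 groups were harvested at 72 hours and all carried 0.1% DMSO. Before these treatments the paper's methods describe a growth arrest in stem cell medium with 0.1% serum. They give no such step for cells kept in stem cell medium. Medium, serum, growth factors and the described arrest therefore changed together with TGF-β1 between Stem and the other groups. Their effects cannot be told apart. In bulk RNA, fewer cells of a type and less RNA per cell cannot be told apart either.

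Library totals ranged from 35686291 to 47741128 counts, and replicates of a group correlated across genes with a Spearman rho of at least 0.995. Values are given as normalized counts, that is counts scaled to a common library of 41184338, on which 3 counts correspond to between 2.63 and 3.26. The label's extraction text names hepatic tissue, yet 4 hepatocyte markers summed to at most 2.63 normalized counts in any library. The 5 endothelial markers summed to between 51.8 and 77.1, but this sum covers opposite changes. Mean Kdr was 0.721 in Stem and 26.1 in TGF-β, and mean Tek was 45.7 in Stem and 18.3 in TGF-β. The 4 adventitial progenitor markers summed to between 50475 and 58767 normalized counts in the Stem libraries. Their sums were between 6361 and 6638 in the TGF-β libraries and between 6784 and 7423 in the Both libraries. Pdgfra made up most of each sum. From TGF-β to Both it was higher, by a log2 fold change of 0.20 ± 0.0580 (SE). The means of Ly6a (-0.36 ± 0.120), Cd34 (-0.62 ± 0.301) and Scara5 (-1.18 ± 0.315) were lower in that step. The 5 smooth muscle and myofibroblast markers summed to between 10564 and 12270 in Stem. Their sums were between 36907 and 40507 in TGF-β and between 20055 and 22093 in Both. From Stem to TGF-β, Postn, Acta2 and Tagln were higher (log2 fold changes of 2.91, 1.21 and 1.42). Myh11 was lower (-1.58) and Cnn1 differed little (-0.18), so the sum does not speak for each gene. From Stem to TGF-β the progenitor and the smooth muscle and myofibroblast sums changed along with the members described below. The part of the markers in the members' values was not tested in any comparison.

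IL-6 family cytokines signal through a shared receptor chain, gp130, which Il6st encodes. Each ligand first engages its own partner: IL-6 binds the IL-6 receptor (Il6ra), IL-11 binds Il11ra1, and LIF binds the LIF receptor chain (Lifr), while oncostatin M uses gp130 with Osmr or Lifr. The assembled receptor activates JAK kinases and STAT3, and SOCS proteins shut the signal off. IL-33 belongs to the IL-1 family and is stored in the nucleus until a damaged cell releases it. It is sensed by ST2, the product of Il1rl1, whereas Il1r1 senses IL-1α and IL-1β. In fibroblasts, IL-6 and IL-11 are known as secreted products of TGF-β-treated cells, and adventitial fibroblastic cells are a known source of IL-33.

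The promoters of Il6, Il11 and Lif are shown because these 3 ligands moved together between Stem and TGF-β. Each window is the RefSeq promoter of 300 bases, from 250 bases before to 50 bases after a transcription start, in mouse build GRCm38.p6 and written 5′ to 3′ on the gene's strand. Capitals mark TGANTCA, the letters of an AP-1 site, which reads the same on both strands. The windows are chr5:30012864-30013163 (plus strand) for Il6, chr7:4778092-4778391 (minus strand) for Il11 and chr11:4257318-4257617 (plus strand) for Lif.
Il6: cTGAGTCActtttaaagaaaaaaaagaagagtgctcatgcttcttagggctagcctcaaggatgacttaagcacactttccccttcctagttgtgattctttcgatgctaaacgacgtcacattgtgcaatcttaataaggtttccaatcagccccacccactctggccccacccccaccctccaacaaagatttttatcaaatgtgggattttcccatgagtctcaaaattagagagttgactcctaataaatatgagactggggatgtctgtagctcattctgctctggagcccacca
Il11: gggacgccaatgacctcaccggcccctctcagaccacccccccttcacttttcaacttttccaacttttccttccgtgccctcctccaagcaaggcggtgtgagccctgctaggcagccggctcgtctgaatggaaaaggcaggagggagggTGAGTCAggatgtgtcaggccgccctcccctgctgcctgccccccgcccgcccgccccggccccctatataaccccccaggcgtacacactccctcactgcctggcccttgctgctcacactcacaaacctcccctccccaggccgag
Lif: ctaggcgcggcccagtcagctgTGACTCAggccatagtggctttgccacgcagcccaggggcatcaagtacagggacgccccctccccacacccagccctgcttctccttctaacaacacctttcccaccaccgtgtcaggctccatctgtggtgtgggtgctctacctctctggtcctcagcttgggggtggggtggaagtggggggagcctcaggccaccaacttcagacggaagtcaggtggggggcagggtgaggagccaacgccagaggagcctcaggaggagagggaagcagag
The letters TGANTCA began at position -249 in the Il6 window, -98 in the Il11 window and -228 in the Lif window, counted from the start site. The other annotated Il11 start, at chr7:4782808-4783107, held no match. Of the members that were lower after TGF-β1, Osmr held 1 match at position +4, so the letters were not limited to the ligands. Over all 32851 RefSeq promoter windows of this length, 7.81% held TGANTCA.

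All 10 members had a promoter entry, in 16 windows. The letters CAGACA of a SMAD site were found in the windows of Il6, Il1r1 and 1 of the Lifr starts, against 21.0% of all windows. TATAAA was found in both Il33 windows, at -29 in the downstream one, against 13.6% of all windows. No member window held TTCNNNGAA, the letters of a STAT site, which 8.30% of all windows held. Each search covered both strands, no match overlapped another, and a match describes letters only.

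Between Stem and TGF-β, the 3 IL-6 family ligands were more than 10-fold higher while the receptor chains were lower. A gene was past the threshold if its adjusted p was below 0.05 and it differed by at least 2-fold. In total, 9 of 10 members were past it, 3 higher and 6 lower, where 25.1% of all genes tested were past it, 10.6% higher and 14.5% lower. The exception was Il33. No member's 3 TGF-β values overlapped its 3 Stem values, as was the case for 76.8% of all genes tested. The members' median log2 fold change was -1.13 beside -0.0027 over all genes. The rule chose the members with this contrast known, so the counts carry no further weight.

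**Figure D1:**
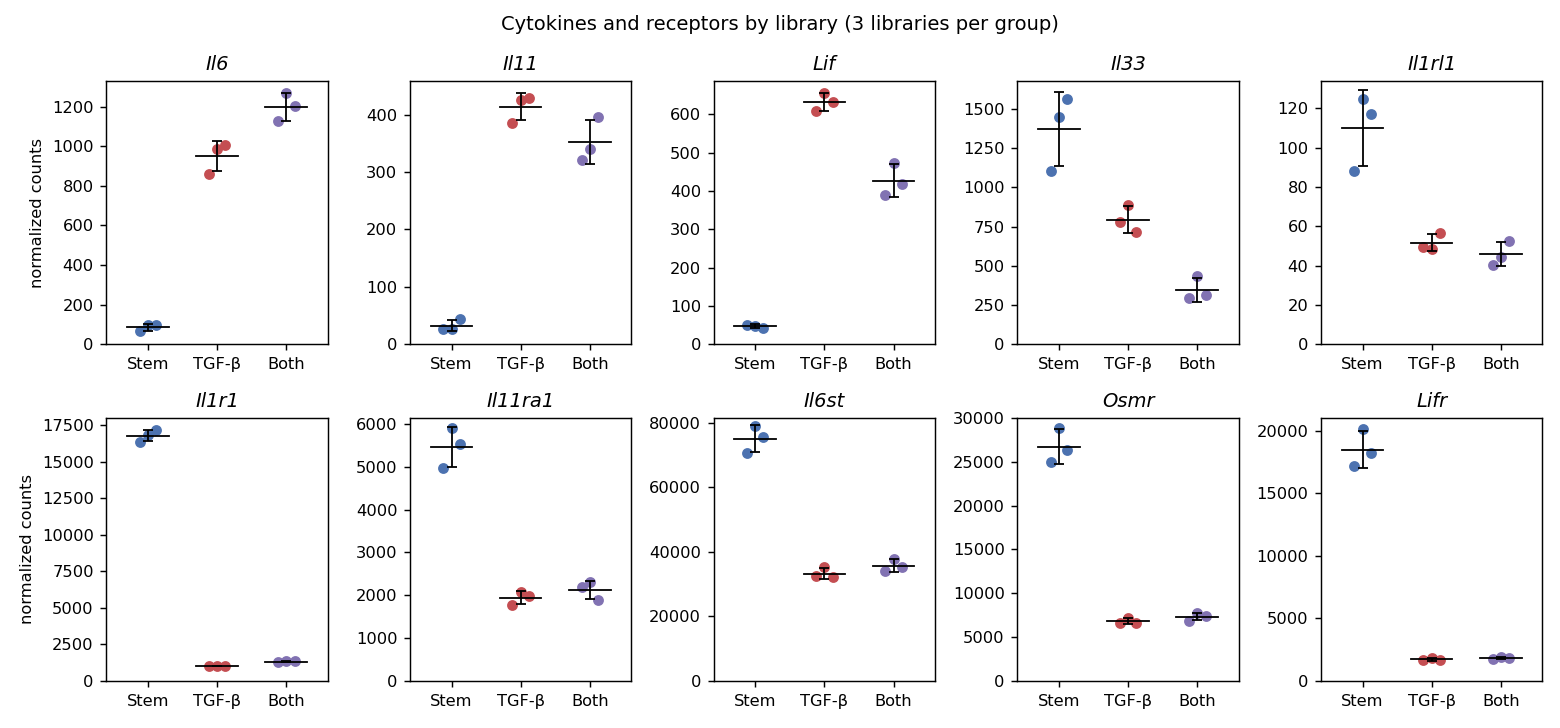
Normalized counts of the 10 members in each library, 1 panel per gene with its own vertical axis from 0, with 3 points each for Stem, TGF-β and Both, a line at each group mean and error bars of 1 SD. Il6, Il11 and Lif sit higher in TGF-β and Both than in Stem, the other 7 genes sit lower, and Il33 takes a further step down from TGF-β to Both.

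Il6 (ENSMUSG00000025746) encodes IL-6, a cytokine of acute inflammation. It had 64.9, 96.7 and 96.3 normalized counts in the Stem libraries, 861, 984 and 1007 in the TGF-β libraries and 1125, 1267 and 1201 in the Both libraries. The group means were 86.0 ± 18.2, 950.5 ± 78.2 and 1198 ± 71.0 (SD, n = 3). The log2 fold change from Stem to TGF-β was 3.47 ± 0.119 (SE), or 11.1-fold. The 3 groups formed 3 separate ranges, in the order Stem, TGF-β, Both.

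Il11 (ENSMUSG00000004371) encodes IL-11, which acts on stromal cells. It had 27.2, 26.1 and 44.4 normalized counts in the Stem libraries, 386, 426 and 429.6 in the TGF-β libraries and 321, 339.5 and 396 in the Both libraries. The mean rose from 32.6 ± 10.2 in Stem to 414 ± 24.0 in TGF-β, a log2 fold change of 3.67 ± 0.160, or 12.7-fold. Stem lay far below both other groups, and the ranges of TGF-β and Both overlapped.

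Lif (ENSMUSG00000034394) encodes leukemia inhibitory factor, best known for holding mouse embryonic stem cells in an undifferentiated state. It had 51.3, 46.7 and 41.1 normalized counts in the Stem libraries, 609.7, 656 and 633 in the TGF-β libraries and 389, 474 and 418 in the Both libraries. The means were 46.4 ± 5.10, 633 ± 23.2 and 427 ± 43.1. The log2 fold change from Stem to TGF-β was 3.77 ± 0.111, or 13.6-fold, within the SEs of that of Il11. Both lay between Stem and TGF-β, with no overlap.

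The shared chain was lower but remained abundant. Il6st (ENSMUSG00000021756) had 70641, 78877 and 75501 normalized counts in the Stem libraries, 32452, 35169.9 and 32181 in the TGF-β libraries and 34104, 37815 and 35254 in the Both libraries. Its mean fell from 75006 ± 4140 in Stem to 33267 ± 1653 in TGF-β, a log2 fold change of -1.17 ± 0.0561, or 2.25-fold lower. TGF-β and Both overlapped.

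The ligand-specific chains were lower by unequal amounts. Lifr (ENSMUSG00000054263), the LIF receptor chain, had 17165, 20127 and 18239 normalized counts in the Stem libraries, 1694, 1818 and 1647 in the TGF-β libraries and 1789, 1926 and 1834 in the Both libraries. Its log2 fold change from Stem to TGF-β was -3.43 ± 0.0645, or 10.8-fold lower, so the LIF ligand and its receptor chain moved in opposite directions. Osmr (ENSMUSG00000022146), the oncostatin M receptor chain, had 24987, 28906 and 26306 in the Stem libraries, 6617, 7217 and 6583 in the TGF-β libraries and 6857, 7699.96 and 7449 in the Both libraries. Its log2 fold change was -1.97 ± 0.0635, or 3.93-fold lower. In both genes Stem stood apart, and TGF-β overlapped with Both.

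Il11ra1 (ENSMUSG00000073889), the IL-11 receptor chain, had 4971, 5895 and 5538 normalized counts in the Stem libraries, 1781, 2069 and 1974 in the TGF-β libraries and 2186, 2304 and 1884 in the Both libraries. Its log2 fold change from Stem to TGF-β was -1.49 ± 0.0825, or 2.82-fold lower, with overlap between TGF-β and Both. Of its 2506 windows of 100 bases of transcript, 42.7% also occur in Gm13305 and 14.9% in Il11ra2, its near-identical copies. Gm13305 had at most 11 counts and Il11ra2 at most 4 in any library. How reads with several alignments were treated is not given in the sources used here, so the level of Il11ra1 is uncertain. The other 9 members shared no such window with another gene.

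Il1r1 (ENSMUSG00000026072), the signaling receptor for IL-1α and IL-1β, had the largest fall of the members. It had 16374, 16875 and 17179 normalized counts in the Stem libraries, 995, 994 and 996 in the TGF-β libraries and 1278.5, 1351 and 1347 in the Both libraries. The means were 16809 ± 406, 995 ± 0.990 and 1326 ± 40.9. The TGF-β SD of 0.990 lies below the counting error of raw counts of 922, 980 and 1020, so it understates the spread. The log2 fold change from Stem to TGF-β was -4.08 ± 0.0416, or 16.9-fold lower. The 3 groups did not overlap, and Both lay slightly above TGF-β.

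Il33 (ENSMUSG00000024810) had 1106, 1446 and 1565 normalized counts in the Stem libraries, 780.2, 886 and 719 in the TGF-β libraries and 295, 435 and 312 in the Both libraries. The means were 1372 ± 239, 795 ± 84.9 and 348 ± 76.3. The log2 fold change from Stem to TGF-β was -0.79 ± 0.143, or 1.73-fold lower, which did not reach 2-fold. Every Both value lay below every TGF-β value, and every TGF-β value below every Stem value.

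Il1rl1 (ENSMUSG00000026069), which encodes the IL-33 receptor ST2, had 87.9, 125 and 117 normalized counts in the Stem libraries, 49.6, 48.7 and 56.6 in the TGF-β libraries and 40.5, 44.4 and 52.7 in the Both libraries. Its mean went from 109.9 ± 19.5 in Stem to 51.6 ± 4.34 in TGF-β, a log2 fold change of -1.08 ± 0.170, or 2.13-fold lower. The fold lay just past the threshold, and without Stem replicate 2 it was -0.98 on the log2 scale and no longer past it. Il33, at -0.79, was the member just outside. Gene counts do not separate the soluble from the membrane form of ST2. Mast cells carry ST2, and the 4 mast cell markers summed to between 6.28 and 20.7 normalized counts over all libraries. This sum covers opposite changes at few counts. Mean Kit went from 6.10 under Stem conditions to 11.2 after TGF-β1 and 14.5 once PFI-3 was added. Mean Cpa3 went from 3.23 to 0.976 and then 0.293 over the same groups. The mast cell protease Mcpt4 was at 0 in each library, and Tpsb2 had counts only in Both replicate 2. The part of mast cells in the Il1rl1 values was not tested.

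**Figure D2:**
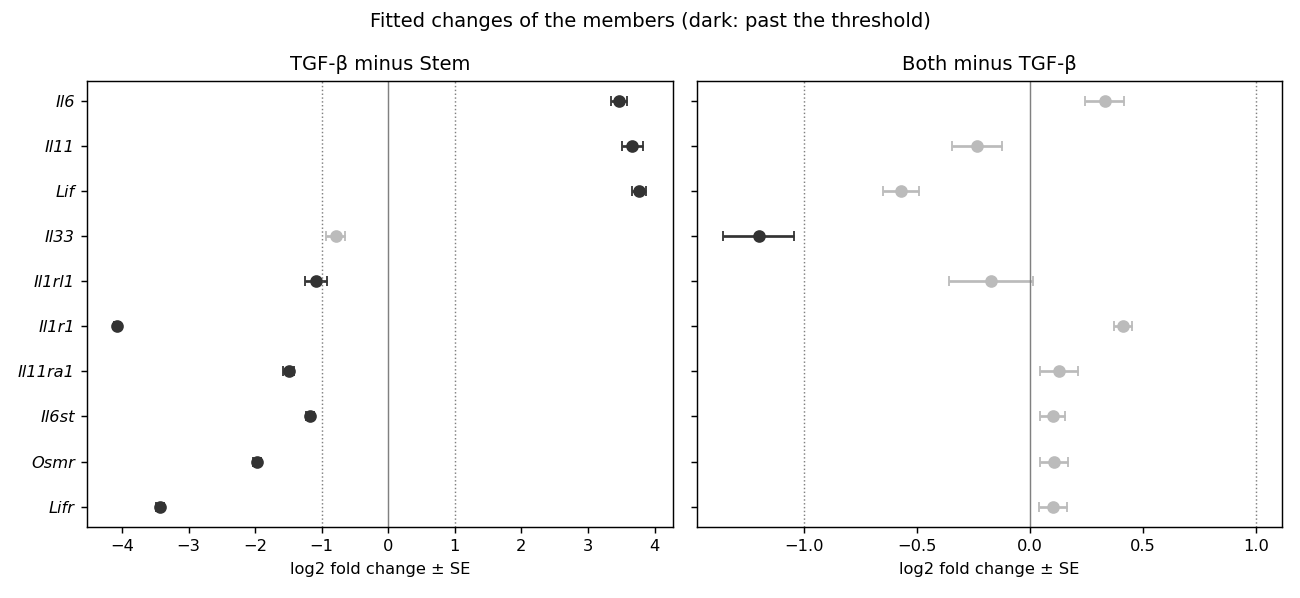
Log2 fold changes of the 10 members with bars of 1 SE, TGF-β minus Stem on the left and Both minus TGF-β on the right, with dotted lines at 2-fold. The panels have different horizontal ranges. On the left 9 of 10 points lie beyond a dotted line, and on the right only Il33 does, at -1.20.

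Between TGF-β and Both, which differed only by PFI-3, Il33 was lower and the receptor chains differed little. Il33 was the only member past the threshold, with a log2 fold change of -1.20 ± 0.156, or 2.29-fold lower. Over all genes 0.632% were past it and 0.470% were past it and lower. Leaving out each library in turn kept this value between -1.39 and -1.09, whereas edgeR's TREAT test, which asks whether the change exceeds 2-fold, did not call it.

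Without the fold minimum, 4 members had an adjusted p below 0.05, as did 8.92% of all genes tested. Il6 and Il1r1 were higher in Both, beside 3.54% of all genes, and Lif and Il33 were lower, beside 5.38%. Il6 differed by a log2 fold change of 0.33 ± 0.0865, or 1.26-fold, Lif by -0.57 ± 0.0806, or 1.48-fold lower, and Il1r1 by 0.41 ± 0.0401, or 1.33-fold. The same 4 genes were those whose TGF-β and Both values did not overlap, which was true of 32.7% of all genes. The call for Il6 rested on every library of the pair: it was lost when any of the 3 TGF-β or 3 Both libraries was left out, with log2 fold changes between 0.27 and 0.38. The calls for Lif, Il33 and Il1r1 were kept without any 1 of the 9 libraries.

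The other 6 members overlapped between TGF-β and Both. Their log2 fold changes were -0.23 ± 0.112 for Il11, -0.17 ± 0.187 for Il1rl1, 0.13 ± 0.0830 for Il11ra1, 0.10 ± 0.0554 for Il6st, 0.11 ± 0.0618 for Osmr and 0.10 ± 0.0619 for Lifr. The 3 ligands of the IL-6 family thus differed among themselves, with Il6 higher, Lif lower and Il11 overlapping. The members' median log2 fold change was 0.10 beside -0.0020 over all genes. Smarca4, which encodes Brg1, differed by -0.04 on the log2 scale in this comparison, and PFI-3 binds the protein, so its RNA does not check the labels. Leukocyte markers, as a list of 7, summed to between 139.6 and 152 normalized counts in Stem, 178 to 219 with TGF-β and 291 to 307 in Both, carried by Csf1r and Lyz2, while Adgre1, Itgam and Cd3e were at 0 in every library. Their part in the Il6 and Il33 values was not tested.

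Both and Stem were also compared, with the medium again different. All 10 members were past the threshold, 3 higher and 7 lower, where 22.8% of all genes were past it, 9.55% higher and 13.2% lower. None overlapped, as for 74.7% of all genes. Il6 was 13.9-fold higher (log2 3.80 ± 0.117), Il11 10.8-fold (3.43 ± 0.161) and Lif 9.20-fold (3.20 ± 0.114). Il33 was 3.95-fold lower (-1.99 ± 0.153), Il1rl1 2.40-fold (-1.26 ± 0.170) and Il1r1 12.7-fold (-3.66 ± 0.0405). Lifr was 10.0-fold lower (-3.32 ± 0.0640), Osmr 3.64-fold (-1.87 ± 0.0632), Il11ra1 2.57-fold (-1.36 ± 0.0817) and Il6st 2.10-fold (-1.07 ± 0.0560). This comparison shares its Stem libraries with the first and its Both libraries with the second.

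Levels of different genes were set side by side only per kilobase of the longest annotated transcript. Il6st was highest in every group, with a mean of 8643 normalized counts per kilobase in Stem and of 3834 with TGF-β and 4117 in Both, followed by Osmr at 4868, 1239 and 1336. In Stem the order went on with Il1r1 at 2889, Il11ra1 at 2099, Lifr at 1917, Il33 at 539, Il6 at 36.7, Il1rl1 at 20.7, Il11 at 16.7 and Lif at 11.5. The ranges of Il11ra1 and Lifr overlapped, as did those of Il1rl1 and Il11, and the other neighbours were apart. With the median transcript length, Lifr (5937) and Il11ra1 (4180) came before Il1r1 (3479) in Stem.

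In TGF-β, Il11ra1 came next after Osmr at 745 normalized counts per kilobase, followed by Il6 at 406, Il33 at 313, Il11 at 212, Lifr at 178, Il1r1 at 171, Lif at 157 and Il1rl1 at 9.74. Il6 thus stood above Il1r1 and Lifr, which it had been far below in Stem. Lifr and Il1r1 overlapped. In Both, Il11ra1 at 816 and Il6 at 511 kept those places, Il1r1 followed at 228 and Lifr at 192, and Il11 at 181, Il33 at 137 and Lif at 106 came next, with Il1rl1 last at 8.65. Lifr overlapped with Il11, Il11 with Il33, and Il33 with Lif. With the median transcript length, 6 of 10 members kept their place in TGF-β, where Il33 then came before Il6 and Lifr before Il11. By that length in Both, Lifr (593), Il33 (480) and Il11 (333) came before Il1r1 (274).

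**Figure D3:**
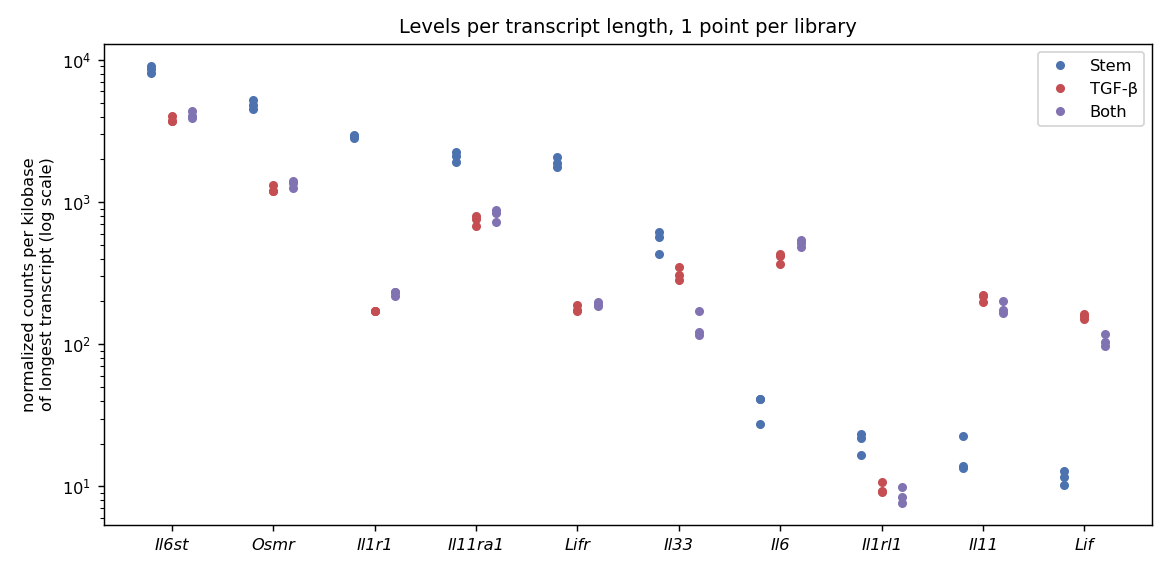
Normalized counts per kilobase of the longest transcript on a log axis, with 1 point per library for Stem, TGF-β and Both and the 10 members ordered from left to right by their Stem mean. Il6st is highest in each group, Il6, Il11 and Lif sit low in Stem and at the height of Il1r1 and Lifr or near it in the other groups, and Il1rl1 is lowest in TGF-β and Both.

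The rest of both pathways was counted over 58 further genes in 8 lists, of which 45 passed the filter. Between Stem and TGF-β, 14 of the 45 were past the threshold in edgeR (quasi-likelihood, Benjamini-Hochberg over all genes), 3 higher and 11 lower, where 25.1% of all genes tested were. Their median log2 fold change was -0.51 beside -0.0027 over all genes. Between TGF-β and Both, 3 of 45 were past it, all lower, beside 0.632% of all genes, and the median was 0.03. Between Stem and Both, 14 were past it, 4 higher and 10 lower, beside 22.8% of all genes, with a median of -0.51.

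Among 8 other IL-6 family ligands, 3 passed the filter. Osm, the gene of oncostatin M, had 0 counts in every library. Of 5 other receptor genes of the family, 3 passed the filter. All 3 were past the threshold and lower in TGF-β than in Stem, beside 14.5% of all genes tested. Il6ra, which encodes the IL-6 receptor, had 1057, 1194 and 1161 normalized counts in the Stem libraries, 222, 228 and 209 in the TGF-β libraries and 219, 244 and 244 in the Both libraries. Its fall after TGF-β1 was -2.37 ± 0.0731 on the log2 scale (adjusted p = 3.50e-11, edgeR), opposite to its ligand Il6. Il27ra, an IL-27 receptor chain, fell by a log2 fold change of -2.64 ± 0.225 (adjusted p = 3.98e-07, edgeR). Cntfr, a receptor chain for ciliary neurotrophic factor, stood at -1.05 ± 0.445 (adjusted p = 0.0459, edgeR) with few counts and overlapping groups, and its call was lost under DESeq2, TREAT, the replicate block, both other filters, the fit of the 6 libraries compared and a prior count of 2, and without any of the TGF-β libraries, Stem replicate 1 or 3, or Both replicate 1. None of the 6 genes of these lists that were tested was past the threshold between TGF-β and Both.

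JAK kinases and STAT factors relay the signal from receptor to nucleus. Of 9 JAK-STAT genes, only Jak2 met both criteria in the step from Stem to TGF-β, at -1.03 ± 0.0441 (adjusted p = 6.71e-10, edgeR). Among all genes tested, 14.5% met both and were lower. In that step 7 of the 9 had an adjusted p below 0.05, all lower, and the list's median was -0.42. So did 11158 of all 14879 genes tested, 5548 higher and 5610 lower, so such a call was common. The Jak2 call was lost without Stem replicate 2 or TGF-β replicate 1. Of 5 feedback inhibitors, 4 were lower in TGF-β without the fold minimum, beside the 5610 of all genes. Past the threshold and lower were 2, beside 14.5% of all genes tested. Cish fell by a log2 fold change of -1.21 ± 0.161 (adjusted p = 2.31e-05, edgeR) and Socs1 by -1.03 ± 0.151 (adjusted p = 5.06e-05, edgeR), the latter not past the threshold without Stem replicate 2, TGF-β replicate 1 or TGF-β replicate 3. Socs3, the main brake on IL-6 signaling through gp130, had means of 1352 ± 43.2 for Stem, 848 ± 74.4 for TGF-β and 1177 ± 77.5 for Both, and did not reach 2-fold in either step. It was higher in Both than in TGF-β by 0.47 ± 0.0686 (adjusted p = 0.00133, edgeR), in the same direction as Il6. From Stem to TGF-β it moved opposite to Il6, at -0.67 ± 0.0687 (adjusted p = 2.18e-06, edgeR).

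Known STAT3 target genes went in both directions. Of 10, 2 were past the threshold and higher in TGF-β than in Stem, beside 10.6% of all genes tested. Another 3 were past it and lower, beside 14.5%. Without the fold minimum 5 were higher and 5 lower, beside 5548 higher and 5610 lower of all 14879 genes tested. Timp1, an inhibitor of matrix metalloproteinases, rose 4.59-fold (adjusted p = 5.58e-12, edgeR), from 2799.7 ± 152.2 to 12842 ± 441.9 normalized counts, and the kinase gene Pim1 rose by 1.24 ± 0.0526 (adjusted p = 6.30e-10, edgeR). Saa3, an acute-phase protein, fell by a log2 fold change of -2.28 ± 0.109 (adjusted p = 1.82e-09, edgeR), and Lcn2, which binds bacterial siderophores, by -2.06 ± 0.203 (adjusted p = 1.53e-06, edgeR). The transcription factor gene Cebpd fell too, by -1.34 (adjusted p = 2.92e-10, edgeR).

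Saa3 and Lcn2 went on to fall with PFI-3. Saa3 had 181, 153 and 187 normalized counts in TGF-β and 69.3, 78.0 and 75.5 in Both, a log2 fold change of -1.23 ± 0.138 (adjusted p = 2.40e-04, edgeR). Lcn2 fell from a mean of 20.2 to 7.29 (-1.44 ± 0.305, adjusted p = 0.0120, edgeR), a call that was lost without TGF-β replicate 2. These were the only 2 of the 10 target genes past the threshold in this comparison, beside 0.470% of all genes past it and lower.

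On the IL-1 side, Il1a and Il1b, the ligands of Il1r1, had 0 counts in every library. Il1rn, which encodes the secreted antagonist of the same receptor, had 107, 101 and 81.0 normalized counts in TGF-β and 47.7, 45.4 and 40.4 in Both. It fell with PFI-3 by a log2 fold change of -1.11 ± 0.206 (adjusted p = 0.00587, edgeR), while Il1r1 itself was slightly higher. Of 6 other IL-1 family receptor genes, 2 passed the filter. Neither Il1rap, the co-receptor that IL-33 and IL-1 share, nor Il1rl2 was past the threshold from Stem to TGF-β or from TGF-β to Both. Il1rl2 was past it from Stem to TGF-β when Stem replicate 1 was left out. It was also past it and lower between Stem and Both, at -1.19 ± 0.121 (adjusted p = 2.14e-06, edgeR). Il1rap went from 1294, 1444 and 1417 normalized counts under Stem conditions to 951, 953 and 1010.5 in TGF-β.

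Of 11 relay genes downstream of IL-1 receptors, 2 were past the threshold and lower in TGF-β than in Stem, beside 14.5% of all genes tested. None was past it between TGF-β and Both, beside 0.632% of all genes. Without the fold minimum, 3 were higher and 6 lower in TGF-β, beside 5548 higher and 5610 lower of all 14879 genes tested. The genes past the threshold were Irak3, an inhibitor of the pathway, at -1.28 on the log2 scale (adjusted p = 2.79e-09, edgeR), and Nfkbia, the NF-κB inhibitor gene, at -1.19 (adjusted p = 3.04e-06, edgeR). Irak3 and Nfkbia encode brakes on NF-κB signaling. Without the fold minimum, the other lower genes were Tnfaip3 at -0.83, Nfkb1 at -0.76, Myd88 at -0.57 and Traf6 at -0.29. The higher genes were Irak2 at 0.99, Map3k7 at 0.20 and Irak1 at 0.10. Irak2, a kinase gene of the same relay, thus stood just below the threshold. It was past the threshold without Stem replicate 1, Stem replicate 3, TGF-β replicate 1 or TGF-β replicate 2. What these values mean for signaling was not tested.

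**Figure D4:**
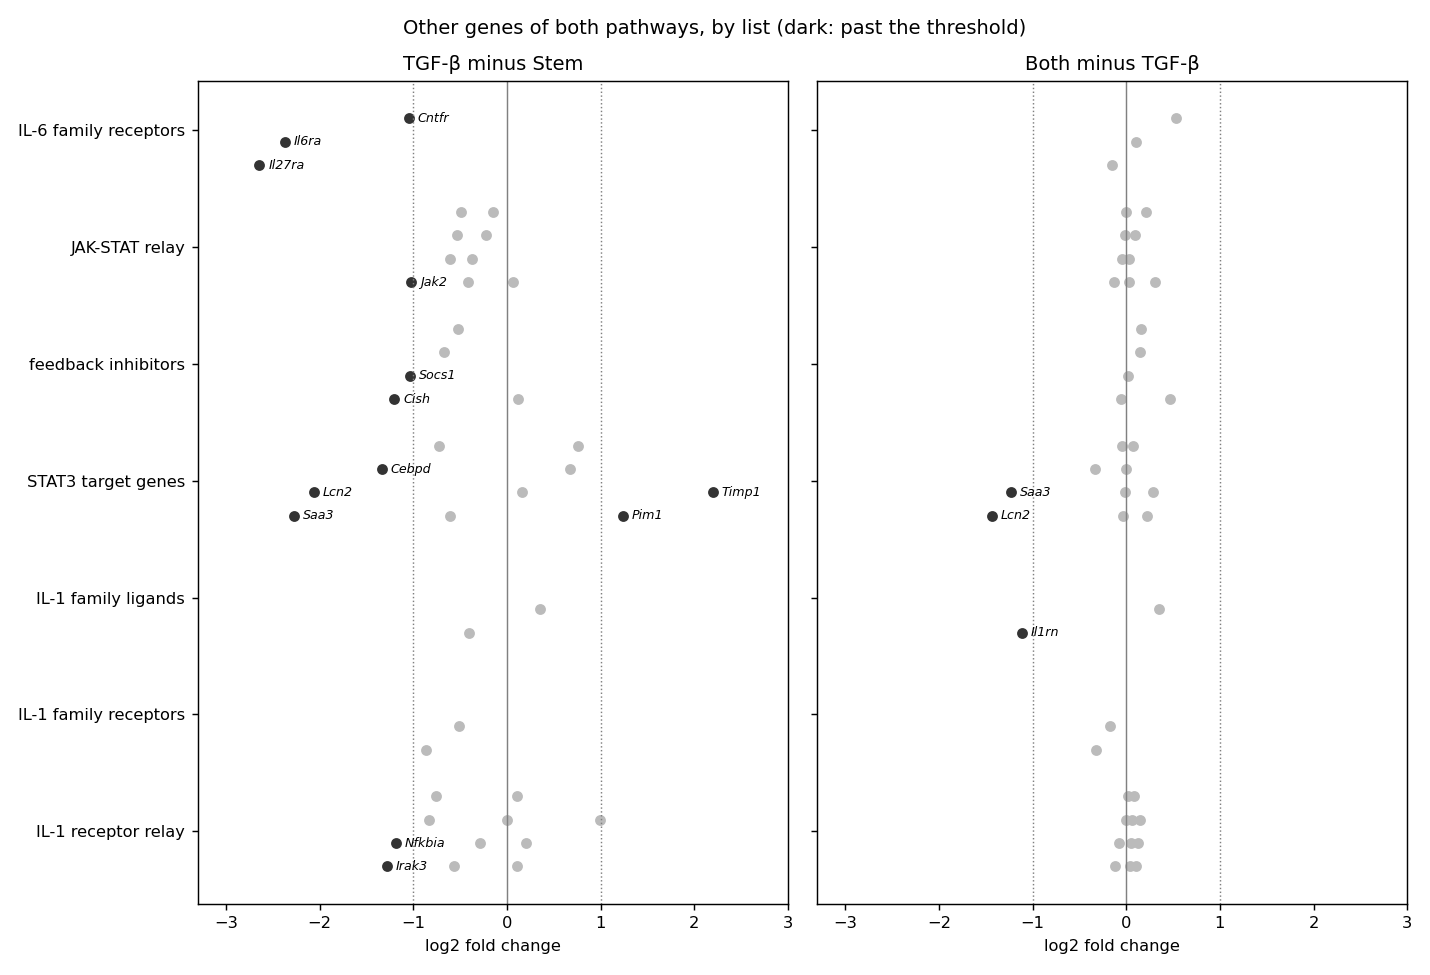
Log2 fold changes of 42 tested pathway genes outside the 10 members, 1 point per gene in 7 lists (all but the ligands of the IL-6 family) on the vertical axis, for TGF-β minus Stem and Both minus TGF-β, with dotted lines at 2-fold and named dark points past the threshold. On the left 11 dark points lie to the left and 2 to the right, and on the right panel the 3 dark points are Saa3, Lcn2 and Il1rn.

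Genes with the most similar pattern to each member were found by Pearson's r of log2 normalized counts over the 9 libraries. With 3 groups, r mainly follows the group means, so many genes come close: 2001 genes had r above 0.95 with Il6. Il33 was unlike the others in this respect, with 43 such genes. The closest to Il33 was Lum, the matrix proteoglycan lumican (r = 0.991), whose means were 3286 normalized counts for Stem, 1622 for TGF-β and 644 for Both. Man1a was closest to Il1r1 (r = 1.000), Igfbp4 to Lifr (r = 0.999), Limk2 to Lif (r = 0.999), Ufm1 to Il6 (r = 0.999) and Pepd to Il11 (r = 0.998). Fam13c was closest to Osmr (r = 0.999), Cavin2 to Il6st (r = 0.999), Slfn5 to Il11ra1 (r = 0.998) and Fam120b to Il1rl1 (r = 0.993).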

How the data were processed

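RNA-Seq was measured in 9 libraries. The table deposited by the authors holds unnormalized counts for each Ensembl gene in each library. The paper's methods name Flexbar, with 12 bases trimmed, and STAR with GRCm39, whereas the submitters' processing notes name HISAT2 2.2.1, SAMtools 1.13 and HTSeq 0.11.3. The strand setting and the handling of multi-mapped reads are not given in the sources used here, so antisense and copied genes carry an uncertainty. CUT&RUN and other assays were not analysed here, and 1 result of the pathway lists is not reported here.

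Analyses used edgeR 4.0.16 and limma 3.58.1 under R 4.3.3. After filterByExpr and TMM scaling, 14879 genes were tested by a quasi-likelihood fit to the 9 libraries, with no term but group, and Benjamini-Hochberg adjustment. The paper's methods name DESeq2 for the test, so DESeq2 1.42.0 was an alternative. Replicates were called independent by the study, and p-values measure the spread between these libraries. Scripts were tested on simulated data. Totals of 35686291 to 47741128 counts put 3 counts at 2.63 to 3.26 normalized counts, which covers counting error only.

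The members, pathway lists and markers were chosen with earlier results of these data known. The genes named are the 10 members, the pathway genes past the threshold, up to 4 a list by size, and for each member the genes most like it with at least 100 mean normalized counts, of which the closest is given. Socs3, Il1rap, Il1rl2, the ligands at 0 counts, and Irak2 and the other IL-1 relay genes below the fold minimum were named after their values were seen. Lengths and shared windows came from GENCODE M21 transcripts of GRCm38 and promoters from RefSeq GRCm38.p6, with no coordinates taken for the counts. Alternatives were other scalings, filters, prior counts, fold minimums and tests, a replicate block, the 6 libraries compared, median transcript lengths and leaving out each library.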

Additional observations from a re-analysis of the deposited data

How the results depend on the processing

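Of 570 member values under alternatives, 570 kept their direction and 561 their side of the threshold. Direction could not change with no fold minimum or under TREAT, which reuse the main log2 fold changes. Leaving out a library outside the pair compared also keeps all counts of that pair, so the tally overstates how far direction was tried. Leaving out each library left 8 to 9 members called in the step from Stem to TGF-β, 1 in each case between TGF-β and Both, and 10 in each case between Stem and Both. The 5 lost calls were Il1rl1 without Stem replicate 2 (-0.98), and, by edgeR's TREAT test against 2-fold, Il1rl1 in both comparisons with Stem, Il6st between Stem and Both, and Il33 between TGF-β and Both. TREAT left 0 members between TGF-β and Both (1 at an unadjusted p below 0.05), where DESeq2 gave 1. It left 9, 0 and 9 pathway genes in the comparisons TGF-β with Stem, Both with TGF-β and Both with Stem (2 unadjusted in the second, where DESeq2 gave 3), and 2479, 4 and 2104 of all genes. With no fold minimum, 4 members passed between TGF-β and Both, 38, 7 and 41 pathway genes passed in the 3 comparisons in that order, and 11158, 1327 and 10900 of all genes did. With no filter, 163 of all genes passed between TGF-β and Both. With median transcript lengths 6 members kept their place in TGF-β, and Il1r1 moved down the order in Stem and Both. Scaling by total counts moved the median of all genes to -0.12 between Stem and TGF-β and -0.11 between Stem and Both. Libraries of different groups share only a replicate number: 4 of 9 same-numbered pairs correlated above 0.1 (r from -0.0539 to 0.196), and with the replicate block 9, 1 and 10 members and 13, 3 and 14 pathway genes passed. At 3 libraries a group, the low counts of Il11, Lif and Il1rl1 in Stem limit how precisely their folds are known.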
